A study of Mus musculus with 6 samples.

Results

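Fibroblast growth factors (FGFs) are secreted proteins that bind receptor tyrosine kinases (FGFRs) on the cell surface together with heparan sulfate, and the paired receptors signal through RAS and the kinases RAF, MEK and ERK. In mouse embryonic stem cells FGF4 is known as the main autocrine FGF, and its signal through ERK prepares the cells to leave the naive state. FGF5 is the classical marker of the early post-implantation epiblast, FGF8 acts at gastrulation, and FGF15 is the mouse counterpart of human FGF19.

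Described here are 10 genes of this family, chosen by name: the ligand genes Fgf4, Fgf5, Fgf8, Fgf10 and Fgf15, the receptor genes Fgfr1, Fgfr2, Fgfr3 and Fgfr4, and Fgfrl1, which encodes a receptor-like protein without the kinase domain. All 10 were found among the 51826 Ensembl genes of the count table, and all 10 passed the low-count filter that left 14996 genes for testing. Both states came from wild-type V6.5, an established mouse embryonic stem cell line, in a serum-containing Knockout DMEM medium. The ESC group (3 libraries) was kept in LIF with 2i, the inhibitors of GSK3 and of MEK, so that ERK signalling downstream of FGF was under an inhibitor in that group. The EpiLC group (3 libraries) was taken on day 3 without LIF and without 2i, and the labels used here name no added FGF or activin. The labels do not say whether the 3 libraries of a state came from separate cultures, so p-values measure the spread between these libraries, which may be technical.

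The libraries held 9710410 to 22879812 counts. The labels were checked against marker lists: all 10 naive markers were called lower and all 10 formative epiblast markers higher in EpiLC, the latter list including Fgf5 and Fgf15 themselves. Markers of other cell types were present at different levels. Fibroblast markers summed to 8.03 to 9.56 CPM (counts scaled to the library total, edgeR's TMM scaling included) in ESC and 34.3 to 35.5 CPM in EpiLC, and 9 and 5 of the 12 lay below a mean of 1 CPM. Primitive endoderm markers summed to at most 13.1 CPM in any ESC library and to 16.7 to 19.2 CPM in EpiLC. Of these 10 markers 5 were tested, with 2 called higher, 2 lower and 1 not called. Dab2 (0.57 CPM in ESC and 9.97 in EpiLC) and Gata4 (2.55 and 4.93 CPM) were called higher. Hnf4a (3.46 and 0 CPM) and Sox17 (1.45 and 0.06 CPM) were called lower, and Afp was at 0 in all 6 libraries. Trophectoderm markers summed to 90.2 to 98.6 CPM in ESC and 239 to 288 CPM in EpiLC, with 3 of 9 below a mean of 1 CPM in each state and most of the EpiLC sum from the keratin genes Krt18 (150 to 181 CPM) and Krt8 (65.96 to 82.76 CPM). Of the trophectoderm markers 6 were tested, with 3 called higher, 2 lower and 1 not called. The 2 lower were Tfap2c (35.7 CPM in ESC and 3.49 in EpiLC) and Plet1 (11.8 and 2.16 CPM). The part of cells of these other types in the results was not tested. ESC replicate 3 stood apart from the other ESC libraries in many genes of the pathway and in genes outside it.

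All 10 genes were called between the states by edgeR's quasi-likelihood test at a Benjamini-Hochberg adjusted p under 0.05, against 64.6% of all genes tested. The 7 genes higher in EpiLC (background 32.0%) were Fgf5, Fgf8, Fgf15, Fgfr1, Fgfr2, Fgfr3 and Fgfrl1, and the 3 lower ones (background 32.6%) were Fgf4, Fgf10 and Fgfr4. Each of the 10 was called with at least a 2-fold difference, against 29.4% of all genes tested, and in each the 3 EpiLC libraries lay apart from the 3 ESC libraries, as in 70.2% of all genes tested. The genes were chosen with earlier results of these data known, so these shares describe the 10 genes and nothing more is read from them. In RNA from whole dishes, fewer cells expressing a gene and less of its RNA per cell cannot be told apart.

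**Figure D1:**
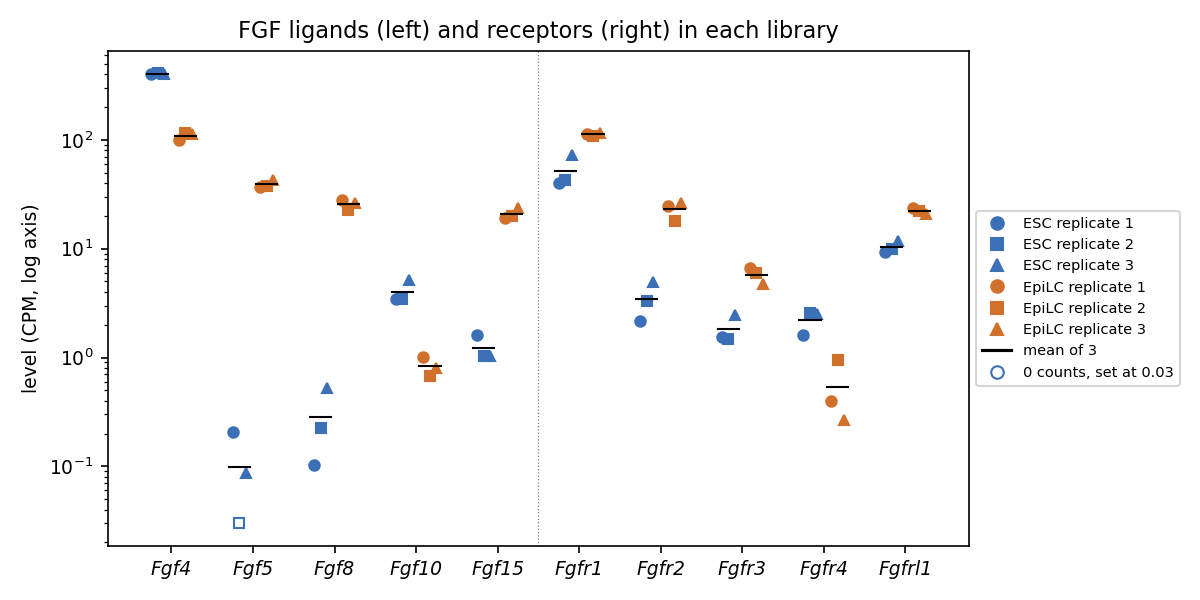
Levels of the 5 ligand genes (left) and 5 receptor genes (right) in CPM on a log axis, 1 symbol per library, with a black line at the mean of 3 libraries. In every gene the ESC symbols (blue) and the EpiLC symbols (orange) do not overlap, and ESC replicate 3 is the highest ESC library of Fgfr1, Fgfr2 and Fgfr3.

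Sequences are shown for the 2 ligand genes that fell and for Fgf5, the ligand with the largest rise, to set their starts side by side. Each run gives the 250 bases before the transcription start from RefSeq (GRCm38.p6, plus strand), and the windows lie at chr7:144861136-144861385 for Fgf4, chr5:98253934-98254183 for Fgf5 and chr13:118714449-118714698 for Fgf10. Capitals mark matches to the motifs searched.

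Fgf4: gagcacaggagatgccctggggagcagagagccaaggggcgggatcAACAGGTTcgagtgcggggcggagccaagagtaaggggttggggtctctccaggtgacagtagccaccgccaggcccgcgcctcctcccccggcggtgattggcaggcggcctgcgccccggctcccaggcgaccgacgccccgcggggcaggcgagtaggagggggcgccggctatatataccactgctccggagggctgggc
Fgf5: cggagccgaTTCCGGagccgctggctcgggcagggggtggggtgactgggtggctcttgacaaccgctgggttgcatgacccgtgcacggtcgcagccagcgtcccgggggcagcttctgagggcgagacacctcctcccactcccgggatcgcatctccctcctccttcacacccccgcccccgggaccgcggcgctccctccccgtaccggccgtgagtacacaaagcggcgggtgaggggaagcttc
Fgf10: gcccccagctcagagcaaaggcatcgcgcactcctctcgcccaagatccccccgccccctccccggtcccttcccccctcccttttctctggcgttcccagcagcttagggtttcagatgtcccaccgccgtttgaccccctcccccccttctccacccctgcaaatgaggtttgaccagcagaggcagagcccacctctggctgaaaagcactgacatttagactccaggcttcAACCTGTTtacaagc

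RefSeq windows of 300 bases, which add 50 bases after the start, were matched by symbol for 7 of the 10 genes, with 8 windows in all. The motifs were searched on both strands. The GRHL site AACCGGTT was in 0 of the 8 windows and in 0.146% of all 32851 windows. Its looser form AACNNGTT, which the strict form also meets, was in the windows of Fgf4 (starting 204 bases before the start) and Fgf10 (15 bases before) and in 4.20% of all windows. Both genes fell, and Fgfr4, the third gene that fell, had no match in its window. The ETS core CCGGAA was in the windows of Fgf5, Fgfrl1 and Fgfr4 and in 14.9% of all, the E-box CACGTG in those of Fgfrl1 and Fgfr2 and in 7.15% of all, and the octamer ATTTGCAT and the TCF/LEF site CTTTGA in none of the 8, against 1.74% and 16.0% of all. CG dinucleotides numbered 28 in the Fgf4 window, 29 in that of Fgf5 and 10 in that of Fgf10, against a median of 7 over all windows. The window of Fgf4, which fell, and that of Fgf5, which rose, thus differed by 1 CG.

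The known enhancer of Fgf4 lies in the 3′ untranslated part of its last exon and carries a SOX site beside a POU site, through which SOX2 and OCT4 are known to act together. The pair was found in GENCODE M21 transcripts with the SOX letters CTTTGTT followed within 4 bases by the POU letters ATGCTAAT, on either strand, a search chosen after the values of Fgf4 were seen. It lies at chr7:144864388-144864417 (GRCm38, plus strand, exon 3 of 3), and the 30 bases printed carry both sites in capitals, 3 bases apart.

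Fgf4 pair: aaaactCTTTGTTtggATGCTAATgggata

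Transcripts of 3 of 55450 genes hold such a pair, Fgf4 among them. The genes of both factors were lower in EpiLC. Sox2 stood at 381 to 458 CPM in ESC and 33.7 to 38.8 CPM in EpiLC, and Pou5f1, which encodes OCT4, at 811 to 845 and 491 to 500 CPM. Other SOX and POU genes on the marker lists differed in direction. Sox3 (2.19 and 20.9 CPM), Pou3f1 (4.52 and 72.3 CPM) and Sox1 were called higher, Sox17 was called lower and Sox7 was not tested. Whether these levels bear on Fgf4 was not tested.

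Fgf4 (ENSMUSG00000050917, chromosome 7, 144847367 to 144865243 on GRCm38, as for all gene positions) was the ligand gene of the naive state. Its level in replicates 1 to 3 was 400, 410 and 401 CPM in ESC and 98.8, 117 and 114 CPM in EpiLC. The ESC libraries, ESC replicate 3 included, lay within a few percent of each other and all EpiLC libraries were far lower. The fall was 3.68-fold, from 404 ± 5.54 to 110 ± 9.59 CPM (mean ± SD, n = 3 per state, log2 fold change -1.88 with SE 0.08, edgeR adjusted p = 4.54e-07). Even so, Fgf4 remained the highest of the 10 genes per kb of exon in EpiLC.

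Fgf5 (ENSMUSG00000029337, chromosome 5, 98254184 to 98277030) went from the edge of detection to a clear level. It had 4, 0 and 1 counts in the ESC libraries (0.207, 0 and 0.087 CPM) and 369, 438 and 484 counts in the EpiLC libraries (36.9, 37.4 and 43.1 CPM). A count of 0 in ESC replicate 2 allows a level of up to 0.135 CPM, and all 3 ESC libraries lay far below the EpiLC libraries. The ratio of the summed counts per scaled total was 416 (exact 95% interval 178 to 1283). This interval, like those of all count ratios below, covers counting error only and not the spread between libraries. The fitted log2 fold change was 8.57 (SE 0.30, edgeR adjusted p = 8.99e-08). With so few ESC reads the fitted value rests on single libraries, being 9.95 without ESC replicate 1 and 7.82 without ESC replicate 2.

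Fgf8 (ENSMUSG00000025219, chromosome 19, 45736798 to 45742915), a ligand of the primitive streak and of several later organisers, also rose from few reads. The ESC libraries held 2, 5 and 6 counts and the EpiLC libraries 281, 266 and 296. On the CPM scale the level went from 0.28 ± 0.21 to 25.7 ± 2.77 (n = 3 per state, log2 fold change 6.66 with SE 0.27, edgeR adjusted p = 4.87e-07). The ratio of summed counts was 104 (exact 95% interval 60.8 to 197, counting error only). The streak genes T and Mixl1 were called higher in EpiLC, at 4.78 to 7.84 and 2.13 to 2.70 CPM there. Of the 8 streak and mesoderm markers 4 were tested, and of the others Gsc was called lower (3.64 and 0.89 CPM) and Eomes was not called (15.1 and 13.3 CPM). Of the 4 untested markers, Evx1 had 2, 5 and 2 counts in ESC and 19, 9 and 12 in EpiLC. Tbx6 had 6, 15 and 8 counts in ESC and 12, 3 and 5 in EpiLC, and Mesp1 and Msgn1 had at most 3 in any library. The list summed to 16.1 to 25.6 CPM in ESC and 19.5 to 31.0 CPM in EpiLC. The part of streak-like cells in the level of Fgf8 was not tested.

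Fgf15 (ENSMUSG00000031073, chromosome 7, 144896531 to 144900953), known as a gut hormone for bile acid control and as a neural and epiblast transcript in the embryo, stood at 1.61, 1.03 and 1.04 CPM in ESC and at 19.3, 20.1 and 23.4 CPM in EpiLC. All EpiLC libraries were over 10 times the highest ESC library. The log2 fold change was 4.07 (SE 0.19, edgeR adjusted p = 9.02e-07). Of the 2 annotated antisense genes that overlap it, Gm26793 had 1 to 2 counts in ESC and 8 to 15 in EpiLC. The strand setting of the counting is not given in the sources used here, but these counts are small beside the 193 to 263 counts of Fgf15. Markers of neural cells summed to 95.9 to 134 CPM in ESC and 429 to 467 CPM in EpiLC, most of it from Nes in EpiLC (328 to 385 CPM). Of the 8 neural markers 6 were tested, with 5 called higher, 0 lower and 1, Tubb3, not called. Those higher included Pax6 (0.20 CPM in ESC and 9.12 in EpiLC) and Map2 (2.87 and 20.4 CPM). The part of neural cells in the rise of Fgf15 was not tested.

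Fgf10 (ENSMUSG00000021732, chromosome 13, 118669791 to 118792115), a ligand that mesenchyme is known to send to epithelium in budding organs, was low in both states and fell. It stood at 3.42, 3.42 and 5.13 CPM in ESC and at 1.0, 0.68 and 0.80 CPM in EpiLC, where 27 counts in all were found. ESC replicate 3 was the highest library and the groups did not overlap. The log2 fold change was -2.22 (SE 0.30, edgeR adjusted p = 0.000279). The summed level of fibroblast markers, given above, was higher in EpiLC. The part of fibroblasts in the level of Fgf10 was not tested.

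The make-up of the ligand RNA therefore differed between the states, on a scale that allows genes to be compared (CPM per kb of the union of annotated exons). Fgf4 made up 98.5% to 99.0% of the summed level of the 5 ligand genes in ESC and 42.3% to 48.7% in EpiLC. Fgf8 came to 25.1% ± 3.12, Fgf5 to 20.5% ± 0.84 and Fgf15 to 8.99% ± 0.49 of the sum in EpiLC (n = 3), and each was below 0.42% in every ESC library. Without the division by length the shift of Fgf8 was 13.1 percentage points in place of 24.9, and Fgf5 was above Fgf8 in EpiLC (39.1 ± 3.44 and 25.7 ± 2.77 CPM). Fgf10 went from 0.68% ± 0.17 to 0.24% ± 0.05. For each ligand the 2 states did not overlap, and the exact permutation test over libraries gave p = 0.1, the smallest that 3 against 3 allows (two-sided, adjusted p = 0.1 over the 5 ligands). The sum itself was lower in EpiLC, at 128 ± 1.54 and 76.1 ± 3.68 CPM per kb (exact permutation p = 0.1), because the loss of Fgf4 was larger than the gains of the others on this scale.

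**Figure D2:**
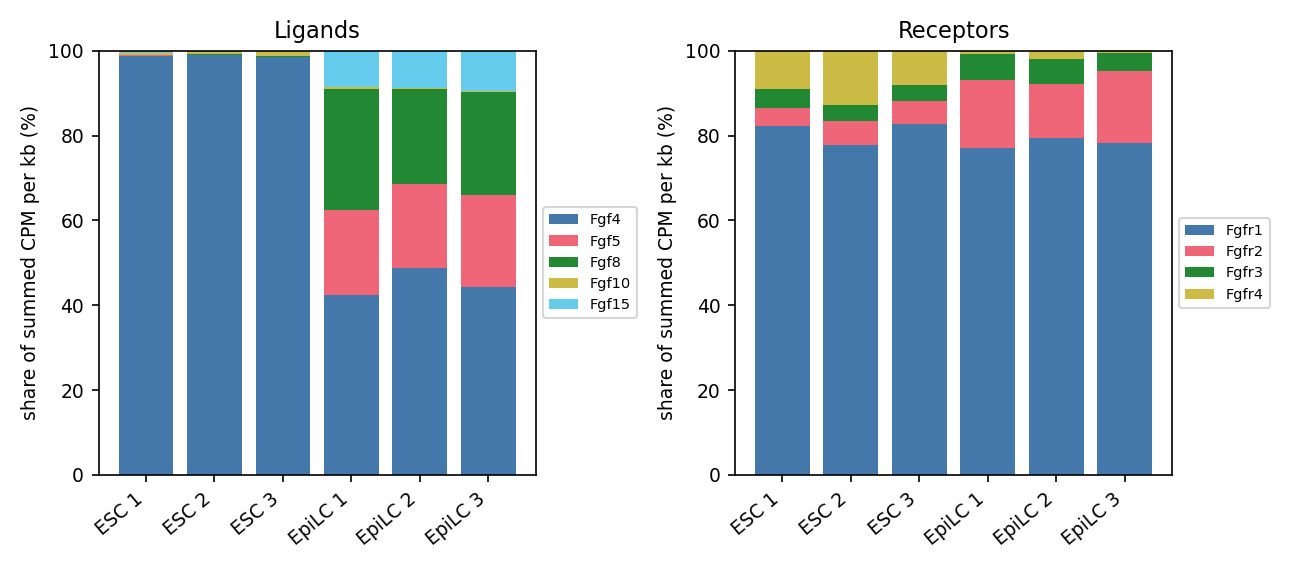
Share of each ligand gene (left) and of each receptor gene with a kinase domain (right) in the summed CPM per kb of its group, 1 stacked bar per library. Fgf4 takes over 98% of the ligand bar in each ESC library and 42.3% to 48.7% in EpiLC, while Fgfr1 takes 77.1% to 82.8% of the receptor bar in all 6 libraries.

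Fgf4 and Fgf15 are neighbours, 31.3 kb apart in the same orientation, and they moved in opposite directions. The region, looked at after the values were seen, also holds Fgf3, a ligand of ear and tail development, whose annotated end is 2.93 kb before the Fgf4 model (the model includes a short transcript that starts upstream). Fgf3 was lower in EpiLC, at 1.82 ± 0.45 against 4.84 ± 1.08 CPM (n = 3, log2 fold change -1.37 with SE 0.26, edgeR adjusted p = 0.00206). Beyond Fgf15, LTO1 missed the threshold (14.5 and 12.1 CPM, edgeR adjusted p = 0.0670). The cyclin gene Ccnd1 rose by a log2 fold change of 0.45 (SE 0.09), and Ano1 on the other side, a chloride channel gene, was not called (2.06 and 1.47 CPM). Of the 13 genes annotated within 250 kb of the start of the Fgf4 model, these 6 were tested, and the 7 others had at most 15 counts in any library.

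**Figure D3:**
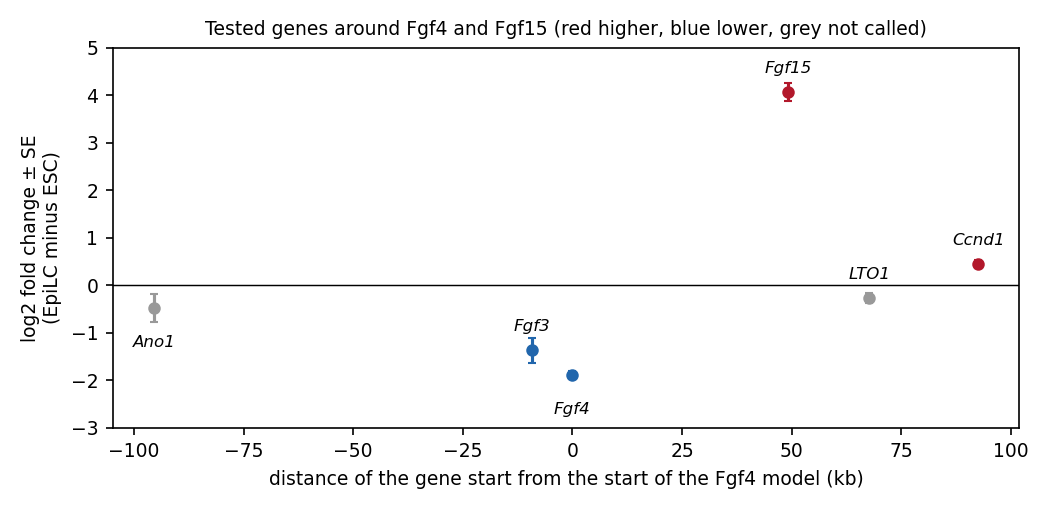
Log2 fold change (EpiLC minus ESC, bars are the SE) of the 6 tested genes around Fgf4, against the distance of each gene's start from the start of the Fgf4 model in kb. Fgf3 (-1.37) and Fgf4 (-1.88) lie below 0 and Fgf15 (4.07), the next tested gene, lies far above it.

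Among the receptors Fgfr1 was the most abundant in both states. Fgfr1 (ENSMUSG00000031565, chromosome 8, 25513654 to 25575718), the receptor that pluripotent cells are known to use for FGF4, stood at 40.5, 43.3 and 72.6 CPM in ESC and at 114, 109 and 117 CPM in EpiLC. ESC replicate 3 was well above the other ESC libraries but below every EpiLC library. The rise was 2.19-fold (log2 fold change 1.13 with SE 0.20, edgeR adjusted p = 0.00135), and the log2 fold change was 1.42 without ESC replicate 3.

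Fgfr2 (ENSMUSG00000030849), whose splice forms bind different ligands in epithelium and mesenchyme, had the largest rise of the receptors. It stood at 2.18, 3.28 and 4.95 CPM in ESC and at 24.8, 18.1 and 26.2 CPM in EpiLC. ESC replicate 3 was again the highest ESC library, and the groups lay far apart. The rise was 6.93-fold (log2 fold change 2.79 with SE 0.26, edgeR adjusted p = 3.66e-05). The annotated model on chromosome 7 runs from 130162451 to 133123350 and overlaps 69 other genes, because a single transcript starts far upstream of the rest. Reads in exons shared with those genes may have been left out or assigned otherwise, which makes the count and the exon length uncertain.

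Fgfr3 (ENSMUSG00000054252, chromosome 5, 33721674 to 33737068), known from growth plate cartilage, was low, at 1.55, 1.48 and 2.43 CPM in ESC and 6.61, 5.97 and 4.72 CPM in EpiLC. All EpiLC libraries were higher (log2 fold change 1.72 with SE 0.24, edgeR adjusted p = 0.000323). Fgfr4 (ENSMUSG00000005320, chromosome 13, 55152640 to 55168759), the receptor of FGF15 in liver, was the only receptor gene of the 5 to fall. It stood at 1.61, 2.56 and 2.52 CPM in ESC and at 0.40, 0.94 and 0.27 CPM in EpiLC, from 117 and 18 counts in all. The log2 fold change was -2.00 (SE 0.42, edgeR adjusted p = 0.00332) and -2.71 without EpiLC replicate 2, the library that held 11 of the 18 counts. Fgf15 and Fgfr4 thus moved in opposite directions.

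Fgfrl1 (ENSMUSG00000008090, chromosome 5, 108692382 to 108706924), which binds FGFs but cannot phosphorylate, stood at 9.32, 9.99 and 11.7 CPM in ESC and at 23.7, 22.0 and 20.7 CPM in EpiLC. The libraries of each state lay close together and the states did not overlap (2.16-fold, log2 fold change 1.11 with SE 0.12, edgeR adjusted p = 8.26e-05). Per kb it was above each of Fgfr2, Fgfr3 and Fgfr4 in both states.

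The summed level of the 4 kinase receptors rose from 6.50 ± 2.09 to 14.7 ± 0.70 CPM per kb (n = 3 per state, exact permutation p = 0.1, the smallest possible), with ESC replicate 3 at 8.89 and the other ESC libraries at 4.98 and 5.63. Fgfr1 held 81.0% ± 2.74 of it in ESC and 78.3% ± 1.16 in EpiLC, and these overlapped (difference -2.68 percentage points, exact permutation p = 0.3, adjusted p = 0.3 over the 4 receptors). Fgfr4 held 8.01% to 12.9% in ESC, the next share by this length, and 0.50% to 1.91% in EpiLC. Fgfr2 went from 4.23% to 5.65% up to 12.6% to 16.8%, and Fgfr3 from 3.95% ± 0.36 to 5.51% ± 0.99. For these 3 genes the states did not overlap (exact permutation p = 0.1, adjusted p = 0.133 each over the 4 receptors). With the length of the longest transcript in place of the exon union, the difference of Fgfr1 became -7.41 percentage points. The Fgfr1 shares of the states did not overlap with that length, so the overlap and p-value above belong to the exon union alone. The difference of Fgfr4 moved from -8.93 to -5.11 with the longest transcript, and Fgfr2 ranked ahead of Fgfr4 in ESC.

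Per kb, the order of the 10 genes in ESC was Fgf4 (126 ± 1.73 CPM per kb), then Fgfr1 (5.28 ± 1.80) and Fgfrl1 (3.72 ± 0.45), whose libraries overlapped, then Fgf10 (0.87 ± 0.21) and Fgfr4 (0.63 ± 0.15), followed by Fgf15, Fgfr2, Fgfr3, Fgf8 and Fgf5, each overlapping the next. Fgfr4 and Fgf15 overlapped as well. The order in EpiLC began with Fgf4 (34.4 ± 3.00), Fgf8 (19.1 ± 2.06), Fgf5 (15.7 ± 1.38) and Fgfr1 (11.5 ± 0.43). Of these Fgf8 and Fgf5 overlapped, as did Fgfrl1 (7.96 ± 0.55) and Fgf15 (6.86 ± 0.71), which came next. Fgfr2 (2.23 ± 0.42) and Fgfr3 (0.81 ± 0.13) stood apart from their neighbours, and Fgf10 and Fgfr4 came last with overlapping libraries. Fgf5 thus went from rank 10 to rank 3 and Fgf8 from 9 to 2, while Fgf10 went from 4 to 9 and Fgfr4 from 5 to 10. Some ranks depended on the length used. With the longest transcript, Fgfr2 took rank 5 and Fgfr4 rank 7 in ESC, and in EpiLC Fgfr1 took rank 2, ahead of Fgf8 and Fgf5, and Fgf15 rank 5, ahead of Fgfrl1.

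ESC replicate 3 differed from the other ESC libraries in many genes of the pathway and in genes outside it. Of the 10 genes, 6 were higher there than in both other ESC libraries (Fgf8, Fgf10, Fgfr1, Fgfr2, Fgfr3 and Fgfrl1), 0 were lower than both, and 4 lay between. Of 16 measured feedback inhibitors and early targets of FGF signalling, 14 were lower there than in both other ESC libraries and 1 was higher. How many of all genes tested lay above or below both other ESC libraries was not counted. These counts therefore describe the listed genes only and cannot be set against a general shift of this library. It held 11499687 counts, against 20124955 and 22879812 in ESC replicates 1 and 2. In replicates 1 to 3, Dusp6, the ERK phosphatase, had 17.6, 19.1 and 6.52 CPM, Spry4 at 12.1, 13.1 and 2.52 CPM, and the early response gene Egr1 at 10.05, 7.20 and 0.96 CPM. The ligand gene Fgf17 stood at 12.9, 10.5 and 2.52 CPM. It was also the highest ESC library of Flrt1 (0.57, 0.36 and 2.78 CPM), Lrp1 (133, 121 and 199.9 CPM) and Frs2 (25.4, 24.6 and 43.3 CPM). What set this library apart was not tested. All 10 genes were also called without it.

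**Figure D4:**
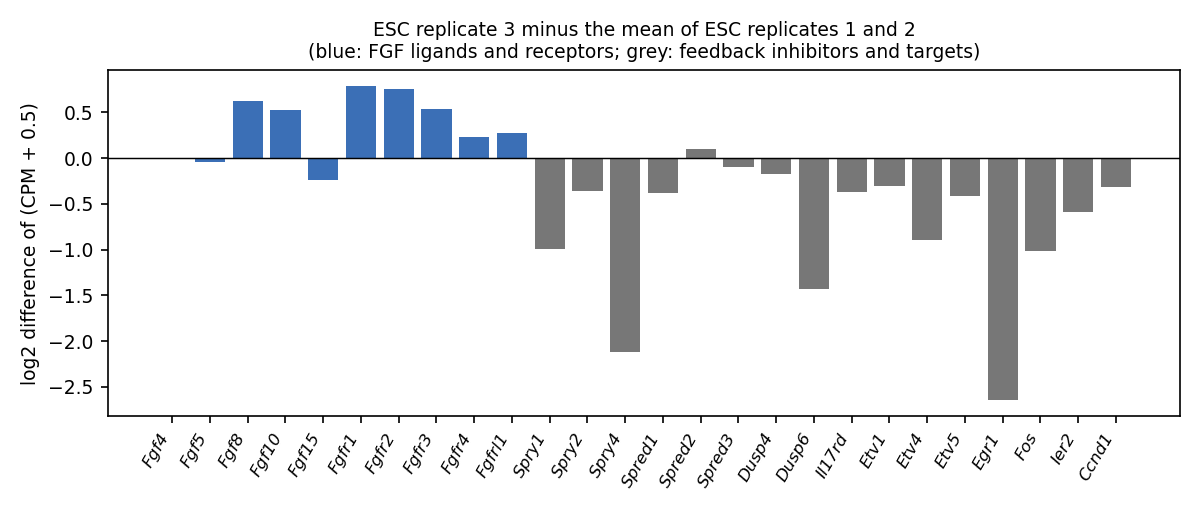
Log2 difference of CPM + 0.5 between ESC replicate 3 and the mean of ESC replicates 1 and 2, for the 10 FGF genes (blue) and for 16 feedback inhibitors and targets (grey). The bars of the 5 receptor genes lie above 0, and 14 of the 16 grey bars mark genes that were lower in replicate 3 than in both other ESC libraries.

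The other FGF genes were mostly silent. Of 17 further Fgf genes 11 lay below a mean of 1 CPM in ESC and 11 in EpiLC, and 7 passed the filter. Of these 3 were called higher (Fgf1, Fgf13 and Fgf14), 2 lower (Fgf3 and Fgf11) and 2 not called. The median log2 fold change was 0.66, against 0.01 over all genes tested. Beside the counts of this and the following lists, 32.0% of all genes tested were called higher and 32.6% lower. The called genes with the largest change were Fgf14 and Fgf13, which encode intracellular proteins of the FGF fold that bind sodium channels and no FGF receptor. The counts and the median of this list are thus not those of ligands alone. Fgf13 rose from 1.78 ± 0.33 to 13.4 ± 1.31 CPM, and Fgf14 rose from 1 count over the ESC libraries to 97 over the EpiLC libraries (ratio of levels 156, exact 95% interval 27.4 to 6234). The fitted log2 fold change of Fgf14 was 6.74, and 8.45 without ESC replicate 3, which held the 1 count, and 6.11 without ESC replicate 2. Fgf17, of the same subfamily as Fgf8, came to 8.63 and 18.6 CPM and missed the threshold (edgeR adjusted p = 0.0506).

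Among 10 matched co-receptors and FGF-binding proteins, 9 were tested: 2 rose, 4 fell and 3 missed the threshold (median log2 fold change -0.34). Klb encodes beta-klotho, the co-receptor that FGF15 and FGF21 need, and it fell along with Fgfr4. Its counts were 43, 62 and 42 in ESC against 1, 1 and 0 in EpiLC (ratio of levels 45.6, exact 95% interval 12.4 to 380, log2 fold change -5.34, edgeR adjusted p = 6.79e-06). Fgfbp1, a carrier that frees FGFs from heparan sulfate, rose from 4.07 ± 2.02 to 33.1 ± 2.26 CPM, with ESC replicate 3 lowest at 1.91 CPM, and Fgfbp3 rose from 0.93 ± 0.15 to 5.44 ± 1.80 CPM. Without ESC replicate 3 the count of 2 higher became 4. Flrt1 (1.24 and 2.20 CPM), Flrt3 (9.34 and 7.39 CPM) and Lrp1 (151 and 172 CPM) were not called.

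Heparan sulfate is the sugar chain that FGFs need to bind their receptors. Of its 12 core protein genes 11 were tested: 6 rose, 2 fell and 3 missed the threshold (median log2 fold change 0.69). The glypican gene Gpc1 rose 3.08-fold from 33.7 ± 2.33 to 104 ± 1.66 CPM, and Gpc6 rose 2.97-fold. Gpc5 rose from 2 counts over the ESC libraries to 44 over the EpiLC libraries (ratio of levels 35.4, exact 95% interval 9.24 to 302), with a log2 fold change of 4.86 that was 7.09 without ESC replicate 2. The 2 that fell, singled out for this, were the syndecan genes Sdc4 (log2 fold change -1.53) and Sdc2 (-0.30), and the count of 2 was 1 without EpiLC replicate 2.

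Of 17 genes for enzymes that build or trim the chain, 14 were tested: 4 rose, 5 fell and 5 missed the threshold (median log2 fold change 0.18). The 6-O-sulfotransferase gene Hs6st2 had 9, 7 and 1 counts in ESC and 238, 296 and 267 in EpiLC, a ratio of 75.9 (exact 95% interval 47.1 to 131), while its paralog Hs6st1 fell by 0.49 on the log2 scale (a gene singled out after its values were known). Hs3st3b1, for a 3-O-sulfotransferase, fell 6.30-fold from 13.2 ± 2.14 to 2.07 ± 0.24 CPM. Sulf1, which removes 6-O-sulfate outside the cell, rose 2.97-fold to 144 ± 9.19 CPM, from 57.6, 55.1 and 31.5 CPM in ESC, replicate 3 being lowest. Hs2st1 (67.8 and 65.3 CPM) and Ndst1 (36.2 and 39.6 CPM) were not called.

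Of 14 adaptor genes 7 were called higher, 2 lower and 5 not called (median 0.48), and the count of 2 lower was 5 without ESC replicate 3. Frs3, one of a pair of docking proteins of FGF receptors, fell from 14.2 ± 0.60 to 4.32 ± 0.76 CPM, while its partner Frs2 was not called (31.1 and 39.6 CPM, 95% interval of the log2 fold change -0.12 to 0.85). Grb10 rose 2.18-fold to 306 ± 12.7 CPM, from 154, 157 and 111 CPM in ESC. Gab2 rose 2.22-fold to 2.53 ± 0.16 CPM (edgeR adjusted p = 0.0195), a call lost without any 1 of the libraries other than ESC replicate 3 (adjusted p = 0.0548 to 0.0798).

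Of the 16 genes of the RAS to ERK relay, all tested, 8 rose, 4 fell and 4 missed the threshold (median log2 fold change 0.29). Braf, which encodes a RAF kinase, rose 2.20-fold to 165 ± 0.91 CPM, from 66.9, 67.3 and 92.6 CPM in ESC, while the scaffold gene Ksr1 fell 2.02-fold. Of 16 feedback inhibitors and targets 10 rose, 1 fell and 5 missed the threshold (median log2 fold change 0.50). Dusp6 rose from 14.4 ± 6.88 to 199 ± 17.4 CPM, Spred3, an inhibitor of RAF activation, from 2.67 ± 0.38 to 15.0 ± 0.47 CPM, and Egr1 from 6.07 ± 4.65 to 29.8 ± 9.55 CPM. Spry2 (68.1 and 61.8 CPM) and Spry4 (9.26 and 9.76 CPM) were not called. The 1 gene that fell was Etv4, singled out for this (log2 fold change -0.60, edgeR adjusted p = 0.0485). The count of 1 was 4 without ESC replicate 3 and 0 when any other single library was left out.

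Regulators that choose between splice forms of FGF receptors numbered 7, of which edgeR called 6 higher and 0 lower (median log2 fold change 0.37), Rbfox2 being the uncalled gene (174 and 153 CPM, log2 fold change -0.18). Its unadjusted p was 0.0454. DESeq2 also called 0 of the 7 lower, and 1 was called lower without ESC replicate 2 and without ESC replicate 3. Esrp1, which favours the epithelial form of Fgfr2, rose from 3.96 ± 1.13 to 134 ± 4.15 CPM, Esrp2 2.49-fold to 22.3 ± 1.81 CPM, and Ptbp2 4.33-fold to 166 ± 8.30 CPM. The table holds counts per gene, so the splice forms of the receptors were not measured.

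**Figure D5:**
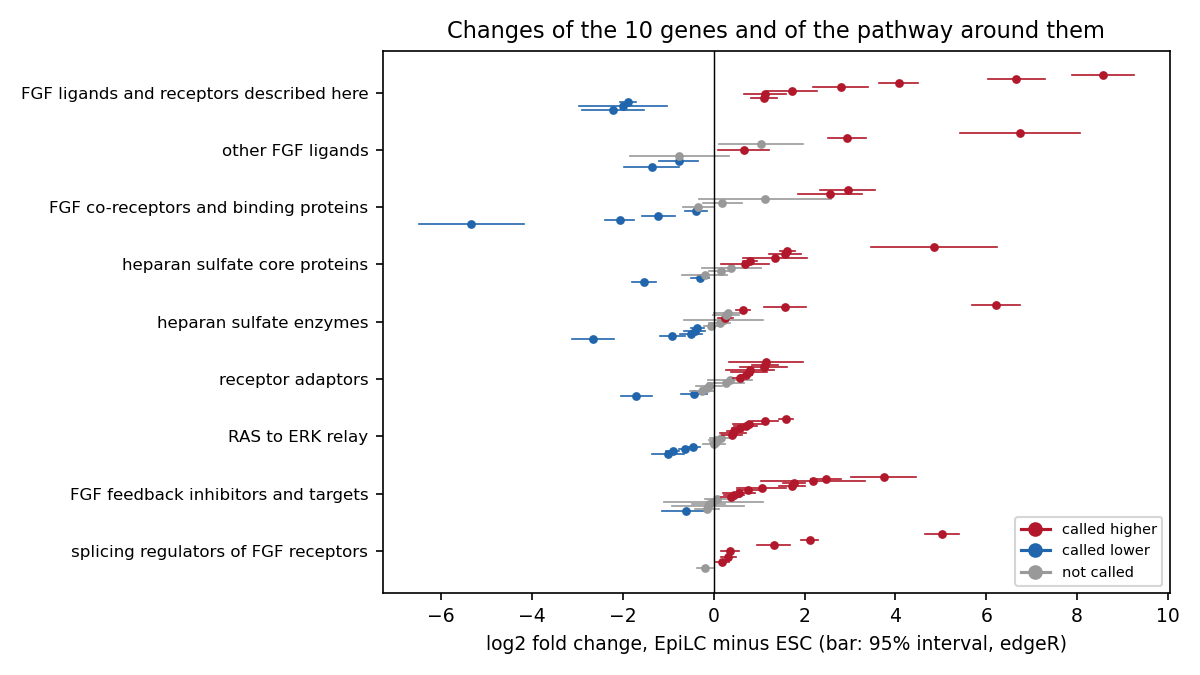
Log2 fold change (EpiLC minus ESC) with its 95% interval from edgeR for the 10 FGF ligand and receptor genes in the top row and for the tested genes of 8 pathway lists below. Fgf5, Fgf8, Fgf14 and Hs6st2 lie beyond 6, Klb is the lowest at -5.34, and the adaptor and relay genes lie within 2 of 0.

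Over the 8 pathway lists, 94 of 109 matched genes were tested, with 46 called higher, 20 lower and 28 not called. Of all genes tested, 32.0% were called higher and 32.6% lower. Some lists lay near these shares, such as the heparan sulfate enzymes with 4 higher and 5 lower of 14. Likeness of pattern was measured as the root mean square difference between centred log2(CPM + 0.5) profiles over the 6 libraries, among 13184 genes. Because all 6 libraries fall in 2 states, it mostly reflects the size of the change on this scale. The added 0.5 shrinks changes of genes at low levels, so the fitted log2 fold changes of near genes can differ. Nearest to Fgf5 were Kif1a (0.23), a kinesin gene, and Tagln (0.24), an actin-binding protein gene, and nearest to Fgf8 Pxdc1 (0.15) and Bcl2 (0.21), the gene of a survival protein. Fgf15 was nearest to Acta2 (0.08) and Tmem154 (0.10), of which Acta2 is on the fibroblast marker list. Their fitted log2 fold changes were 7.03 and 5.54, against 4.07 for Fgf15, from means of 0.03 and 0.13 CPM in ESC. Fgf4 lay nearest to Hoxc4 (0.06), which went from 2.23 to 0.24 CPM, and to the Polycomb partner gene Mtf2 (0.06), which went from 771 ± 17.1 to 199 ± 7.44 CPM. The fitted log2 fold changes were -3.15 for Hoxc4, -1.95 for Mtf2 and -1.88 for Fgf4. The nearest genes of Fgfr1 were the imprinted antisense RNA gene Kcnq1ot1 (0.05) and Tspan2 (0.05), and those of Fgfr2 were Gabra5 (0.14) and the imprinted gene Peg10 (0.15). Both genes nearest to Fgfr1 had its wide ESC spread, with SDs of 60.8 and 3.58 CPM around means of 162 and 9.96. This follows from choosing them by their profile over the same 6 libraries.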

How the data were processed

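Per the labels' protocols, RNA of 3 ESC and 3 EpiLC libraries was depleted of ribosomal RNA before stranded library preparation. Raw read counts per Ensembl gene are what the authors deposited. Cutadapt, STAR, featureCounts, DESeq2 and mm10 appear in the submitters' processing notes, without their settings. Strand setting and annotation release: not given in the sources used here. The 92 spike-in rows held 0 counts and were left out. Symbols, positions and exon lengths came from GENCODE M21 on GRCm38, the assembly of mm10, and matched 51633 of 51826 identifiers.

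Counts were tested with edgeR 4.0.16 in R 4.3.3 (quasi-likelihood, TMM scaling, filterByExpr with 10 counts per library and 15 in total, group as the single term), two-sided and adjusted over all 14996 genes. Levels are CPM on TMM-scaled totals. Totals ran from 9710410 to 22879812 counts, so 3 counts, the limit that a count of 0 allows, came to 0.135 to 0.300 CPM. Shares were tested by exact permutation. The fit was first tested on simulated data. The genes and lists were chosen with earlier results of these data known. Of the listed symbols, Anos1 and Spry3 had no match. Named genes were the 10 genes, up to 3 called genes with the largest change per pathway list (at least 1 CPM on average in the state with more) and the 2 genes of most like pattern. Some genes that this rule names are not reported here. The alternatives were RLE, upper quartile and library total scaling, no filter, DESeq2 1.42.0, limma-voom (limma 3.58.1), a replicate block, other lengths and sums, and each library left out.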

Additional observations from a re-analysis of the deposited data

How the results depend on the processing

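All 10 FGF genes kept their direction and their call under all 13 alternatives of the test, with the highest adjusted p for Fgfr4 (0.0194 without EpiLC replicate 1). The count of genes with a call and at least a 2-fold difference was 10, and 9 when ESC replicate 1 or ESC replicate 2 was left out, where the log2 fold change of Fgfr1 fell just short of 1. Same-numbered libraries did not deviate together (correlations -0.09, -0.01 and -0.15), and no library correlated best with its own number. With 3 libraries per state such small correlations cannot decide whether a number marks a shared culture or day, and the labels do not say. With the replicate block the 7 higher and 3 lower genes were called, and 9231 genes in all. DESeq2 called 9161 and edgeR without ESC replicate 3 called 11730.

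The counts of the small lists moved. Feedback genes called lower were 0 with upper quartile scaling, library totals, limma-voom and the replicate block, and 0 to 4 with 1 library left out. Co-receptors called higher were 2 to 4, core proteins lower 1 to 2 and adaptors lower 2 to 5 with 1 library left out. Splicing regulators called lower were 1 without the filter and 0 to 1 with 1 library left out. No share changed direction, but the Fgfr1 shares of the states overlapped with the exon union and not with the longest transcript. Without length correction the shift of Fgf4 was -42.8 percentage points in place of -53.7. Few reads limit Fgf5 and Fgf8 in ESC and Fgfr4 and Fgf10 in EpiLC.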
